A study of Mus musculus with 8 samples.

Results

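The stretches of the genome described here are 50 kb windows in which DNA replicated later in mouse embryonic stem cells after depletion of YY1. A window was taken when the lower of the 2 control scores exceeded the higher of the 2 dTAG scores by at least 0.5 score units, and windows no more than 100 kb apart were joined. The windows were selected on the measured difference in all 4 profiles, so that difference is a description here and no test of it was made. The rule took 561 of 51425 windows, which is 1.09% of them, and the mirrored rule for earlier replication took 273, or 0.531%. Nothing is read from these shares, since they are the rule itself. The later windows formed 125 regions that span 28.45 Mb, and the earlier windows into 89 regions that span 14 Mb.

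The cells are labelled as mouse embryonic stem cells (mESC), and the labels give no line, clone, tag position or dose. The dTAG groups were collected 2 days after treatment with dTAG, a small molecule that directs a tagged protein, here YY1, to the proteasome, and the control groups carry the label control. Culture and treatment are given only by reference to an earlier publication (Weintraub et al.). Each of 4 profiles, control 1, control 2, dTAG 1 and dTAG 2, was built by the authors from an early and a late S phase fraction of cells labelled with BrdU for 2 h, so 8 samples stand behind them. The first replicate of each group has no number in the labels, the title and the fraction label of the dTAG 1 samples disagree on which is early, and nothing says that the replicates were separate cultures. There are no expression data here, so the cell label could not be checked by expressed markers. In timing, 10 of 10 pluripotency markers lay above 0 in all 4 profiles, at scores of 2.62 to 4.63. The share of all genes above 0 is not given beside them, so these scores do not identify the cell type. The values are smoothed scores without read counts, so their depth is unknown, and YY1 protein was not measured in these data.

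Replication timing is the order in which parts of the genome are copied during S phase. Gene-rich, open chromatin generally replicates early, and compact chromatin at the nuclear lamina generally replicates late. On a timing profile a peak marks DNA that is copied before its flanks, where forks start, a valley marks DNA that is copied last by forks arriving from both sides, and a slope lies between them. YY1 is a zinc finger protein that binds a short motif with the core CCAT at promoters and enhancers and can bring bound elements together in loops.

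Promoters with a YY1-type motif inside the later regions show what sequence lies in them. The core motif CCATNTT was searched on both strands in 300-base promoters, 250 bases before to 50 after each RefSeq start on GRCm38.p6, and so was GCCATNTT, which contains the core and adds 1 base. Printed are the 6 promoters with the longer motif from the regions with the lowest difference, cut at 30 bases after the start, 5′ to 3′ on the gene's strand, with each copy of the longer motif in capitals.
Gm364 (chrX:57408899-57409178, plus strand): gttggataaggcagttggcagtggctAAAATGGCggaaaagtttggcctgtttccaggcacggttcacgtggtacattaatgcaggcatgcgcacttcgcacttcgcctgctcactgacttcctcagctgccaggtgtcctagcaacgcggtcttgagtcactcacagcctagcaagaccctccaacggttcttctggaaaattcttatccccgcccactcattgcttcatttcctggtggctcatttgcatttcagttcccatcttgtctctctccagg
Gm35240 (chr12:77553461-77553740, plus strand): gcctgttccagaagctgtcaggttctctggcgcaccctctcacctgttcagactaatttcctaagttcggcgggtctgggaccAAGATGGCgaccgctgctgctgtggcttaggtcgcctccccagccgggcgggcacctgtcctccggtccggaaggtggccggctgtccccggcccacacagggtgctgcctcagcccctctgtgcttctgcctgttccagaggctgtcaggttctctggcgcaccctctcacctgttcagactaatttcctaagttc
Gm38822 (chr6:58813719-58813998, minus strand): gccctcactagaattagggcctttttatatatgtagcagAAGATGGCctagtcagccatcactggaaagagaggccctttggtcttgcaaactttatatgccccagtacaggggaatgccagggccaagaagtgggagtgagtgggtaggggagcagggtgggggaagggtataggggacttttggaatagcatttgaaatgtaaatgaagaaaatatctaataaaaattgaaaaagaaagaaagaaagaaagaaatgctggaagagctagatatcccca
Gm31392 (chr14:24067088-24067367, minus strand): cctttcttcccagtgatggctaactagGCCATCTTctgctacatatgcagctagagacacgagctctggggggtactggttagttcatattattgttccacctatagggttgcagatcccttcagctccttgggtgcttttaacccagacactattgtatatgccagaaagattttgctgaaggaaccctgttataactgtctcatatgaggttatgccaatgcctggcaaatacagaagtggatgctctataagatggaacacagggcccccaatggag
Kcnma1 (chr14:24004176-24004455, minus strand): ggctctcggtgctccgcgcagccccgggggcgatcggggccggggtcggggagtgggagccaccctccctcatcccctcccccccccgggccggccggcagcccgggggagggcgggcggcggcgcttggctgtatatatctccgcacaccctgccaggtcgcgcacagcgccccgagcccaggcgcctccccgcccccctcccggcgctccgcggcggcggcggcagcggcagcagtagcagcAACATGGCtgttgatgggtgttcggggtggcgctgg
Cdk5rap2 (chr4:70410406-70410685, minus strand): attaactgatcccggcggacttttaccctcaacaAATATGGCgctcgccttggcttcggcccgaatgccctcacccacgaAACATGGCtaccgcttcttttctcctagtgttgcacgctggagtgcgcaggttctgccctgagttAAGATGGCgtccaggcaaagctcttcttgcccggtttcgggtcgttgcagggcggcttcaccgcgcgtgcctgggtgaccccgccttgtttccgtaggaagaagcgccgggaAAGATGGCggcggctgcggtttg

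Positions count from the start, with negative values upstream. In Gm364, a predicted gene, the motif began at -224, and the window at that start scored -0.50 and -0.76 in the controls and -1.86 and -3.03 after dTAG. In Gm35240, a long noncoding RNA gene within the longest region, it began at -167. In Kcnma1, which encodes a large-conductance calcium-activated potassium channel, it began at -6, in a promoter with 78.0% G and C. The promoter of Cdk5rap2, a centrosome gene, held 4 copies, the last of them at 8. Its window scored 0.09 in both controls and -0.78 and -1.22 after dTAG.

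Over all 257 promoters in later regions the core was found in 42, or 16.3%, against 16.1% of all 32619 promoters. The longer motif was found in 15, or 5.84%, against 6.08% of all. In the earlier regions the core stood in 29 of 86 promoters (33.7%) and the longer motif in 13 (15.1%). These promoters are not separate cases, since of the 67 protein-coding genes placed in the earlier regions 36 were olfactory receptor genes, most of them neighbours in clusters. The earlier promoters differed in composition, with a median G and C content of 40.5%, against 50% in the later regions and 53.0% over all. These are counts of letters in a short window, and enhancers and other distal sites were not searched.

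The later windows lay close to the middle of the timing scale in the control and on its late side after dTAG. Their mean score was -0.31 in control 1, -0.24 in control 2, -1.29 in dTAG 1 and -1.62 in dTAG 2. The mean difference was -0.98 within replicate 1 and -1.37 within replicate 2. All 4 profiles were below 0 in 300 windows and above 0 in 96, and 92 windows had both controls above 0 and both dTAG profiles below 0. So most shifts moved DNA within one side of the scale rather than across it.

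The gap between the lower control and the higher dTAG score had a median of 0.70 and reached 1.76. It was at least 0.75 in 245 windows, at least 1 in 98, at least 1.5 in 14 and at least 2 in 0. Just inside the threshold, a window of Cadm2 (chr16:67350001-67400000) scored -2.52 and -2.51 in the controls and -3.02 and -3.38 after dTAG, a gap of 0.5001. Just outside it, a window at chr1:188850001-188900000 scored 0.30 and -0.07 in the controls and -0.56 and -0.96 after dTAG, a gap of 0.4978. Every member window had a score at all 10 of its 5 kb positions.

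Among deciles of the mean over all profiles, numbered from the latest, decile 5 held the most later windows, 163, and decile 4 held 131. Deciles 3 and 6 held 63 and 98, and decile 7 held 53. The latest decile held 14, decile 2 23, decile 8 9, decile 9 0 and the earliest decile 7.

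The count of members depends on the rule and on each profile. With 1 profile left out fewer scores have to stand apart, and there were 1812 later windows if control 1 was dropped and 3103 if control 2 was, and dropping dTAG 1 or dTAG 2 gave 5566 or 928. Of all shifted windows, later or earlier, 67.3% were later. Leaving out control 1 or dTAG 2 turned this around, to 26.6% and 25.4%, and leaving out control 2 or dTAG 1 raised it to 83.4% and 75.5%. The replicate numbers carry offset scores: the median difference over all windows was 0.21 and 0.20 in the first pair of settings and -0.18 in both of the second pair. With every profile brought to a single distribution 759 windows were later, of which 391 were members, and 88 of the 125 regions kept at least 1 window. The mean difference of each region in that setting was from -2.28 to -0.57, and its sign is all but fixed by the rule. With any 1 profile left out the rule all but fixes the sign as well, and the difference moved by over 1.5 times in 22 of the 125 regions.

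Region by region, the median score was -0.25 in control 1, -0.28 in control 2, -1.12 in dTAG 1 and -1.52 in dTAG 2. The median difference of the 125 regions was -1.003, with single regions from -2.31 to -0.58. Replicate 2 gave the larger difference in 91 regions, and in 28 of them it was over 2 times that of replicate 1, while the reverse held in 1. This is not particular to the later regions. Over all windows the quartiles of the difference were -0.31 and 0.30 in replicate 2, against -0.18 and 0.20 in replicate 1. The larger difference was that of replicate 2 in 402 of 561 later windows and in 194 of 273 earlier ones. In 70 regions the differences agreed to within 1.5-fold. Control profiles of a region differed with a median SD of 0.15 and dTAG profiles with a median SD of 0.22 (n = 2 each).

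**Figure D1:**
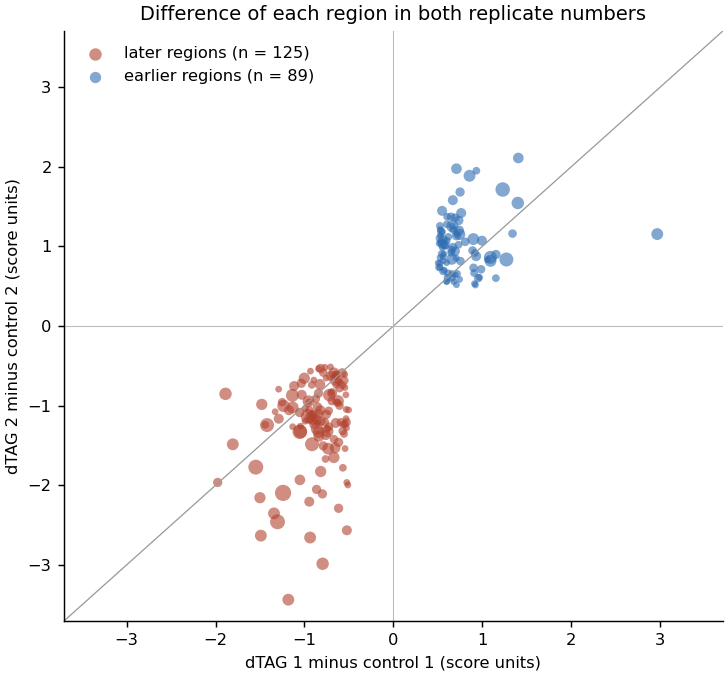
Each point is a region, with dTAG 1 minus control 1 on the x axis and dTAG 2 minus control 2 on the y axis, in score units; point area grows with region size, red marks the 125 later and blue the 89 earlier regions, and the grey diagonal marks equal differences. All later regions lie below 0 on both axes because the rule requires it, and 91 of them lie further from 0 in replicate 2 than in replicate 1.

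Regions were 50 to 850 kb long, with a median of 200 kb. Single windows made up 30 regions, and 39 regions of at least 300 kb held 336 of the 561 windows. The earlier regions were shorter, with a median of 100 kb and 13 of at least 300 kb. Of the 39 long later regions, 35 kept a window on a single distribution, and 17 of the 30 single-window regions kept none. A long region has more windows of which any may be kept, so these counts do not compare like with like.

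The longest region, 850 kb on chromosome 12 (chr12:77400001-78250000), reached from Fut8, the enzyme gene for core fucosylation of N-glycans, to the edge of Gphn, which encodes the inhibitory synapse scaffold gephyrin. It scored 0.22 in control 1, 0.70 in control 2, -1.02 in dTAG 1 and -1.40 in dTAG 2. Its centre lay low in a valley between earlier flanks in both groups, and it moved from just above 0 to below 0. Only 7.0% of Gphn and 31.9% of Fut8 lay in it, and the predicted gene Gm6657 lay wholly inside.

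The region at Lrfn5 (chr12:61250001-61950000), which encodes an adhesion protein of synapses, scored -1.58 and -1.09 in the controls and -3.12 and -2.86 after dTAG. Lrfn5, 335 kb long, lay inside the region, which was a peak in both groups. The window at its midpoint fell from -0.28 and 0.24 to -2.23 and -1.66, and the replicates differed by less than the groups.

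The lowest difference of any region was on chromosome 1 (chr1:61350001-61750000), at Pard3b, a cell polarity gene of which 11.1% lay inside. The scores were -1.66 and -1.20 in the controls, -2.84 in dTAG 1 and -4.64 in dTAG 2. The difference was -2.31 with all profiles, -1.41 without dTAG 2 and -3.21 without dTAG 1. A local peak in the control became a valley after dTAG. The region between Dclk1, a microtubule-associated kinase gene, and Nbea, a membrane trafficking gene (chr3:55450001-55850000), was also a peak in the control and a valley after dTAG. It scored -2.45 and -2.57 in the controls and -3.94 and -5.20 after dTAG, and Mab21l1, an eye development gene, lay inside it.

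At Cdhr3, a cadherin-related gene, and Sypl, which encodes a relative of synaptophysin, the region on chromosome 12 (chr12:32950001-33150000) scored 1.62 and 0.36 in the controls and -0.36 and -1.61 after dTAG. Its differences were -1.98 and -1.96, nearly the same in both replicates although the replicates themselves stood over 1 unit apart. Only 1.32% of Atxn7l1 lay in it. The region with Wdfy1, Ap1s3, the protease inhibitor gene Serpine2 and the mitochondrial ribosome gene Mrpl44 (chr1:79550001-79900000) scored 0.24 and -0.25 in the controls and -1.26 and -2.41 after dTAG. It stayed a peak. Suclg2, a mitochondrial succinyl-CoA ligase gene, lay inside a region (chr6:95400001-95850000) that scored -2.15 and -1.17 in the controls and -2.94 and -4.15 after dTAG. Its centre was a valley in both groups. A local peak also lay inside the region in both, at -1.43 on the control mean and -3.40 on the dTAG mean. The window at the midpoint of Suclg2 did not itself meet the rule.

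On chromosome X the region with Arhgef6, a Rac and Cdc42 exchange factor gene, Cd40lg, the CD40 ligand gene, the RNA-binding gene Rbmx and Gm364 (chrX:57150001-57550000) scored -0.97 and -1.06 in the controls and -2.31 and -3.41 after dTAG. The region at Aff2, the gene at the FRAXE fragile site (chrX:69650001-70050000), scored -2.89 and -1.60 in the controls and -3.83 and -4.26 after dTAG. Its difference of -1.80 was -1.15 without control 2 and -2.44 without control 1. Among the 17 regions that the naming rule took, those at Pard3b and Aff2 were the only ones whose difference moved by over 1.5 times when 1 profile was left out. The region at Rps6ka6, an RSK family kinase gene, Hdx and the sperm head gene Cylc1 (chrX:111100001-111600000) scored 0.59 and 0.38 in the controls and -0.54 and -0.49 after dTAG, so it crossed 0 in both replicates.

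**Figure D2:**
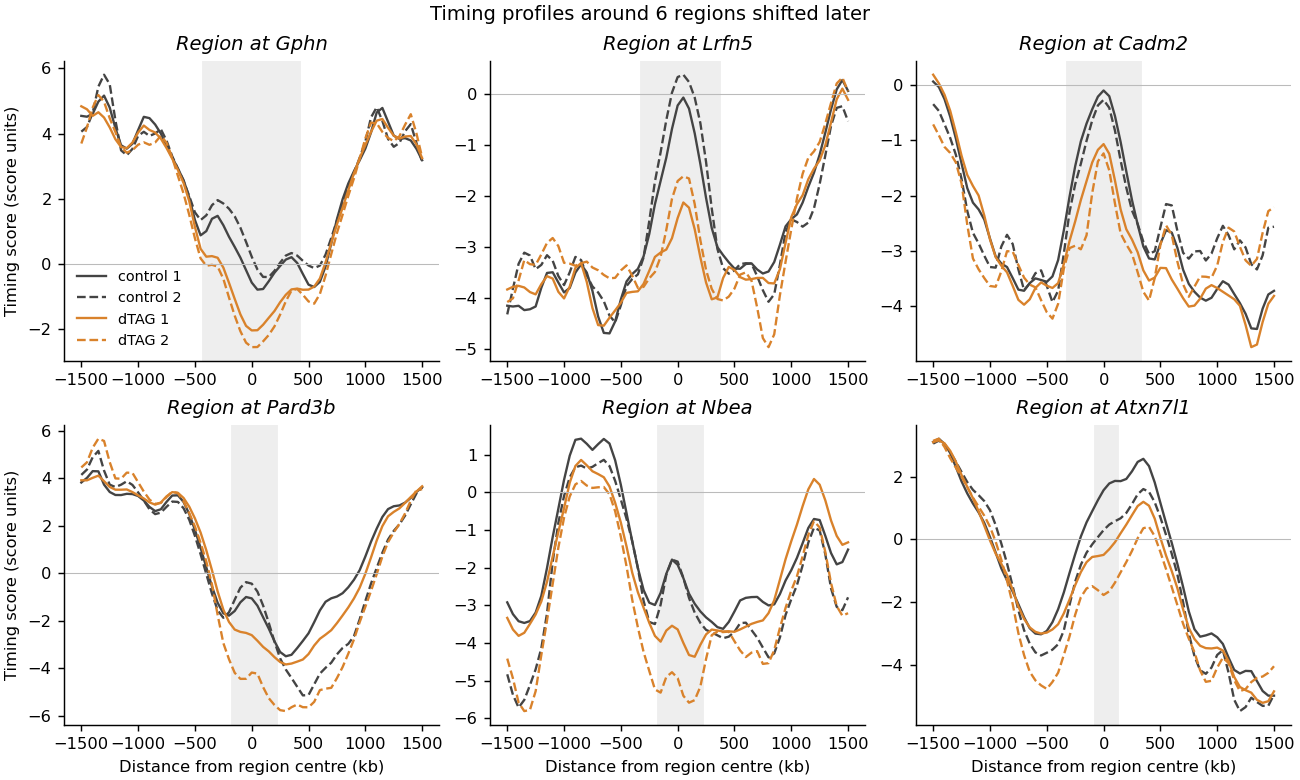
Timing score, in score units, against distance from the centre of the region in kb for 6 regions: Fut8 to Gphn, Lrfn5, Cadm2, Pard3b, Dclk1 to Nbea, and Cdhr3 to Atxn7l1. Black lines are the controls and orange lines the dTAG profiles, solid for replicate 1 and dashed for replicate 2, and grey marks the region; the Lrfn5 peak stays in place but lower, and the peak at Pard3b is a valley after dTAG.

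Other long regions had differences closer to 0. Nrcam, a neuronal cell adhesion gene, lay with the phospholipase gene Pnpla8 and the endoplasmic reticulum chaperone gene Dnajb9 in a region (chr12:44150001-44700000) that scored 0.66 and 0.42 in the controls and -0.39 and -0.91 after dTAG. It was a peak before and after, and it crossed 0.

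The region with Adra1a, the alpha-1A adrenergic receptor gene, the stathmin gene Stmn4, and parts of the kinase gene Ptk2b and the axon guidance gene Dpysl2 (chr14:66250001-66850000) scored 1.23 and 0.52 in the controls and -0.19 and -0.72 after dTAG. Cadm2, a 966 kb cell adhesion gene, held a whole region of 650 kb (chr16:66750001-67400000) that scored -1.07 and -1.31 in the controls and -2.03 and -2.44 after dTAG. Fndc3a, with the predicted genes Gm9195, Gm4606 and Gm30500, lay in a region (chr14:72350001-72950000) that scored -0.21 and 0.15 in the controls and -1.12 and -1.33 after dTAG. The region that ends in Rnf144a, an E3 ubiquitin ligase gene of which 39.8% lay inside (chr12:26000001-26350000), scored -3.05 and -2.40 in the controls and -3.72 and -4.05 after dTAG. All 4 regions have the dTAG scores below the control scores, as the rule requires of their windows.

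Above 0 in both controls and below 0 in both dTAG profiles were 20 regions, 25 lay above 0 in all 4 profiles and 66 below 0 in all 4. Besides regions given above, those that crossed included Kcnma1 and Dlg5 (chr14:23800001-24200000), at 0.83 and 0.97 in the controls and -0.01 and -0.36 after dTAG, and Amph and Vps41 (chr13:18700001-19100000), at 0.53 and 0.41 and then -0.60 and -0.62. These 2 examples were chosen after their values were seen. No region crossed in the opposite direction, as the rule requires.

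The 7 later windows of the earliest decile were 7 regions of a single window each, and decile 9 held 0. They overlapped Vwa3b, Taf4, Fbxw8 with Tesc, Stra6 with Ccdc33, Cabin1, Thoc3 and Hsf2bp, and they were singled out after their values were seen. Taf4 encodes a subunit of the general transcription factor TFIID and Thoc3 a subunit of the mRNA export complex THO. The window at Vwa3b (chr1:37050001-37100000) scored 5.41 and 5.56 in the controls and 4.08 and 4.48 after dTAG. The window at Taf4 (chr2:179950001-180000000) scored 5.29 and 5.11 and then 4.52 and 4.59. On a single distribution, of these 7, only those at Cabin1 and at Fbxw8 with Tesc still met the rule.

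Place on the local profile was read from the mean of both controls. The height of a region's centre between the nearest turning points was called a peak at 0.75 or more of the way up, a valley at 0.25 or less and a slope in between. Peaks held 64 of the 125 later regions (51.2%, 95% exact interval 42.1 to 60.2%), slopes 42 (33.6%) and valleys 19 (15.2%). Of all windows 30.6% lay at a peak, 37.4% on a slope and 31.6% in a valley. Counted by window in the same way, the 569 windows of the later regions gave 47.1%, 41.3% and 11.6%, so slopes then stood above their share of all windows. Among windows with control scores between the quartiles of the later regions, -1.43 and 0.72, peaks held 24.1%, slopes 50.8% and valleys 24.5%. The intervals cover counting only, and neighbouring windows are not independent.

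These places come from profiles that the rule used, and a rule that asks for a high control score favours control peaks. Read on the dTAG mean, the same regions lay at 43 peaks, on 42 slopes and in 39 valleys, with 1 beyond the last turning point. Read on the mean of all 4 profiles they lay at 56 peaks, on 41 slopes and in 27 valleys. The earlier regions gave the mirror image, with peaks at 34.8% on the control and 51.7% on the dTAG mean. Leaving out a profile made the rule call a larger set of later regions. The peak share was 61.0% of the 497 regions called without control 1 and 32.5% of the 1205 called without dTAG 1. These shares therefore mix a change of regions with a change of place.

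**Figure D3:**
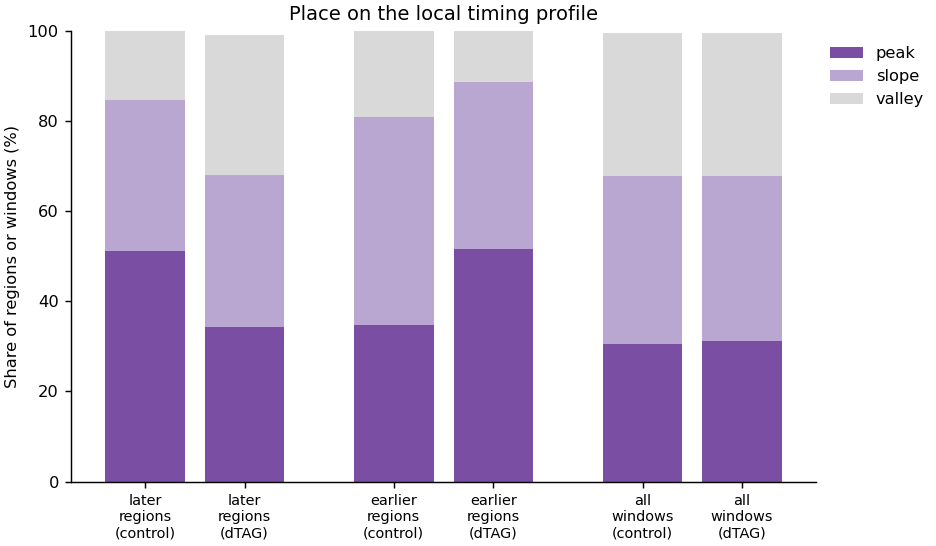
Stacked bars give the share, in percent, of later regions (125), earlier regions (89) and all windows (51425) whose centre lay at a peak, on a slope or in a valley, read on the control or on the dTAG mean; bars under 100% leave out places beyond the last turning point. Later regions were at a peak in 51.2% on the control and 34.4% on the dTAG mean, and earlier regions in 34.8% and 51.7%.

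A turning point at the top of a peak lay inside 50 of the later regions in the control. In 27 of these the dTAG mean had a peak inside as well, and in 23 it had none. Of the 27, the peak stayed in the same window in 19 and within 50 kb in 26, while its score had a median of 0.09 in the control and -1.38 after dTAG. The median difference in height of those peaks was -1.04. In no region did the dTAG mean have a peak inside where the control had none.

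By class, 43 regions were peaks before and after, 14 went from peak to slope and 6 from peak to valley. Those 6, named after their values were seen, overlapped Pard3b, Nbea with Dclk1, the netrin receptor gene Unc5c, the meiotic gene Hsf2bp, and the transcriptional regulator gene Setbp1, and 1 held no protein-coding gene. Of 42 slopes 28 remained slopes and 14 became valleys, and all 19 valleys remained valleys. On the slopes the control profile changed by a median of 7.45 score units per Mb at the region centre. Divided by this gradient, region by region, the difference equals a distance along the slope with a median of 113 kb and quartiles of 75.1 and 315 kb. No sideways displacement was measured, and a drop in height alone would give the same values.

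The difference faded with distance from the centre of the regions. The mean dTAG minus control difference was -1.10 at the centre, -0.51 and -0.56 at 250 kb on either side, -0.19 and -0.17 at 500 kb, and -0.05 and -0.01 at 1000 kb. At the centre it was -0.93 in replicate 1 and -1.27 in replicate 2. The mean control profile was -0.02 at the centre and -0.82 and -0.66 at 250 kb. After dTAG the same places gave -1.12, -1.33 and -1.23. The regions are centred on windows chosen for a high control and a low dTAG score, so a central rise in the control, a lower centre after dTAG and a difference that fades outward follow from the choice. The deposited scores are smoothed, which spreads any local difference to neighbouring positions.

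**Figure D4:**
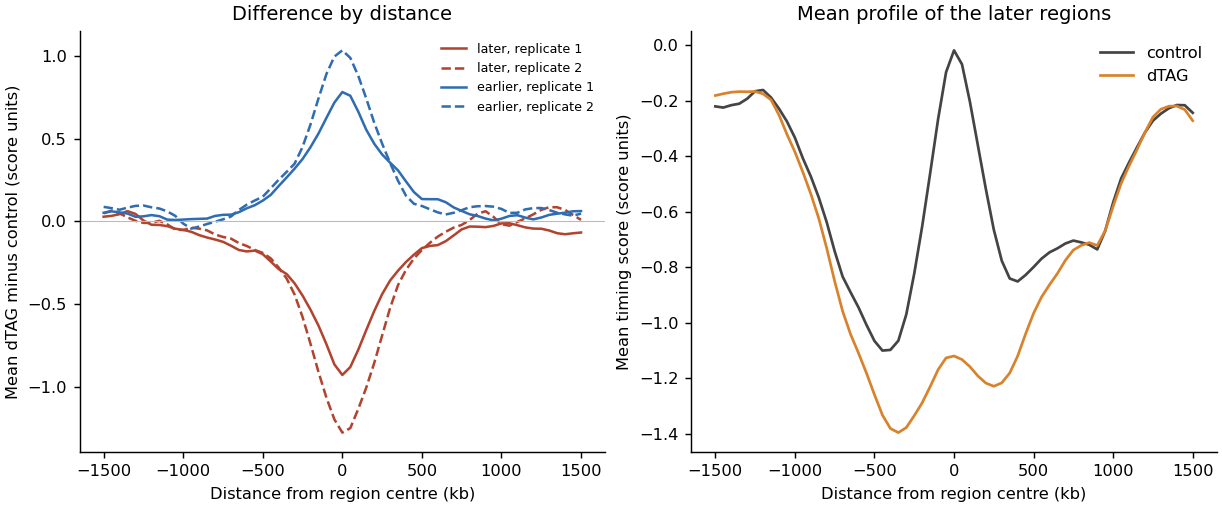
The left panel gives the mean dTAG minus control difference, in score units, against distance from the region centre in kb, for later (red) and earlier (blue) regions, solid for replicate 1 and dashed for replicate 2. The right panel gives the mean timing score of the later regions in the control (black) and after dTAG (orange), where the central value is -0.02 and -1.12.

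The median distance from a later region to the next later region was 7000 kb and to the nearest earlier region 10575 kb. The second median leaves out the later regions of chromosomes 16 and 17, which had 0 earlier regions. Distances between randomly placed regions were not computed, so nothing is read from these values. The closest later regions stood 150 kb apart, just over the joining limit of 100 kb. Of the 125, 24 lay within 1000 kb of another later region and 9 within 1000 kb of an earlier one.

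Chromosome 12 held the most later windows, 77 of its 2341 (3.29%) in 10 regions of 3.85 Mb, and 6 earlier windows. On a single distribution the counts there were 98 and 9, and 67 and 8 after the mean of each chromosome was taken off every profile. Chromosome 14 had 51 later windows (2.09%) and 5 earlier, chromosome X 56 and 34, and chromosomes 16 and 17 had 21 and 31 later and 0 earlier. Chromosome 8 had 8 later and 20 earlier windows, or 18 and 30 on a single distribution, and chromosome 2 had 13 and 22. Windows of a region are not independent, so 10 regions rather than 77 windows are the units on chromosome 12. Counted in regions, chromosome X held 11 later regions, chromosome 6 also 10, chromosome 14 9 and chromosome 17 8. Chromosome 12 was thus first in windows and in span, but not in the number of regions.

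**Figure D5:**
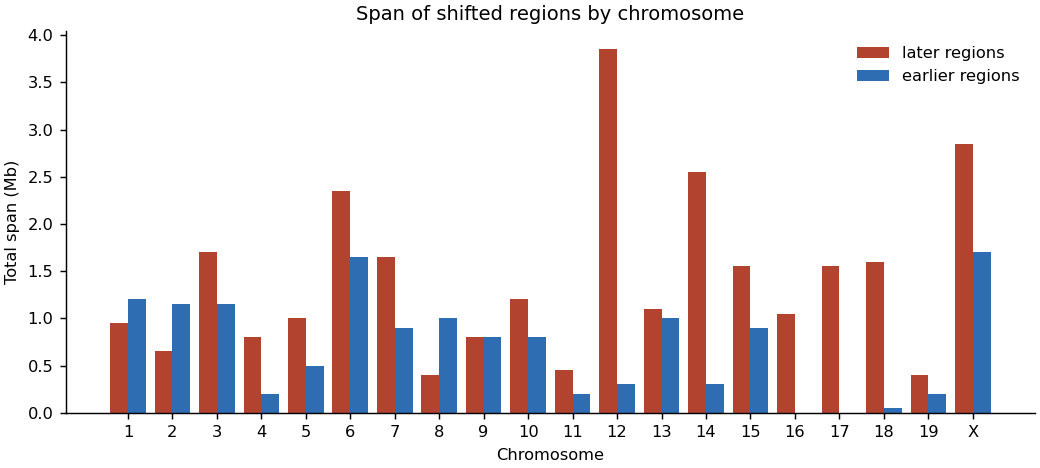
Bars give the total span, in Mb, of later (red) and earlier (blue) regions on each chromosome. Chromosome 12 has 3.85 Mb of later and 0.3 Mb of earlier regions, and chromosome 8 has 0.4 Mb and 1.0 Mb.

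The later regions held few genes, and those genes were long. The midpoints of 174 of 21521 protein-coding genes lay in them (0.81%), while the regions cover 1.11% of the windows. That is 6.12 genes per Mb, against 8.37 over all scored windows and 4.79 in the earlier regions. The genes had a median length of 33.3 kb, against 17.4 kb for all genes and 1.08 kb in the earlier regions, and 27.6% were over 100 kb long, against 11.3% and 5.97%. Of the 67 protein-coding genes in the earlier regions 36 were olfactory receptor genes, so the values there largely describe a single gene family. No protein-coding gene overlapped 20 regions and 1 overlapped 44, and 21 regions lay wholly inside a gene. Of the 89 earlier regions, 53 overlapped no protein-coding gene.

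Regions inside a single long gene included those in Cadm2, the dystrophin gene Dmd, Csmd1, Pkhd1, Unc5c and Focad, examples chosen after their values were seen. The region in Dmd (chrX:84000001-84250000), a muscle protein gene of 2390 kb, scored -2.18 and -2.12 in the controls and -3.05 and -3.30 after dTAG. Cadm2 and Dmd were 2 of 40 long neuronal and fragile-site genes in later regions, and the list's median difference was -0.04, against 0.01 over all windows. Of all protein-coding genes 0.81% lay in later regions, and nothing is read from a count of 2.

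Of 39 genes for neuronal adhesion and synapse organisers, Lrfn5 and Lrfn2 lay in later regions and 0 in earlier ones, with a list median of 0.00. Over all protein-coding genes the shares were 0.81% and 0.31%, and nothing is read from a count of 2. The window of Lrfn2 scored 1.47 and 0.17 in the controls and -0.70 and -0.55 after dTAG, so its difference was -2.16 in replicate 1 and -0.72 in replicate 2.

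Imprinted genes, which are expressed from the copy of 1 parent, lay in 3 later regions. Of 13 genes of the Prader-Willi and Angelman cluster, 6 lay in later regions and 0 in earlier ones, and the list's median difference was -0.64. Over all protein-coding genes the shares were 0.81% and 0.31%, but these 6 are neighbours in 2 regions and not separate cases. The windows at the midpoints of Snurf and Magel2 did not meet the rule themselves and were taken in by joining. Snrpn and Snurf lay in a region (chr7:59850001-60250000) that scored -2.13 and -1.51 in the controls and -2.87 and -2.83 after dTAG. Ndn, Magel2, Mkrn3 and Peg12 lay in a second region of the cluster (chr7:62200001-62500000), at -1.505 and -1.725 and then -2.33 and -2.46. On a single distribution 1 window of the Snrpn region and 2 of the Ndn region still met the rule, of 6 and 5. Of 45 other imprinted genes Nap1l5 was the only member in a later region, with a score of -0.45 and -0.08 in the controls and -1.24 and -1.78 after dTAG.

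Of 49211 genes of all types, 424 lay in later regions (0.86%), and of 1330 small nucleolar RNA genes 30 did (2.26%). Of these 30, 21 lay in the Snrpn region, 17 of them annotated as Snord116 copies, so most of this count is 1 locus of repeated genes, where reads can be shared between near-identical copies. Among microRNA genes Mir491, Mir5627 and Mir7210 lay in later regions, 3 of 1228 (0.24%).

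Of 75 oxidative phosphorylation genes, Ndufa5, a subunit gene of respiratory complex I, was the only member in a later region, and it scored -0.16 and -0.11 in the controls and -0.82 and -1.64 after dTAG. Chemosensory receptors appeared in both directions. Of 1105 olfactory receptor genes, 19 lay in later regions and 36 in earlier ones, with a list median of 0.15. Over all protein-coding genes 0.81% lay in later and 0.31% in earlier regions. The 19 came from 3 clusters: 6 genes on chromosome 6, Olfr26 and Olfr926 on chromosome 9, and 11 on chromosome 19 (chr19:13650001-13900000). Neighbours there share a window, so their scores are not separate measurements. Vomeronasal type 1 receptors gave 3 of 228 genes, Vmn1r46, Vmn1r47 and Vmn1r48, all in neighbouring windows, and type 2 receptors 0 of 122 later and 3 earlier. Of 397 zinc finger genes of the Zfp series, Zfp37 and Zfp438 lay in later regions.

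None of the 26 pluripotency genes, 14 genes of the formative and primed epiblast or 14 genes of the 2-cell-like state lay in a later region or an earlier one. The germ layer and placenta lists, 11 neural, 10 mesodermal, 10 endodermal and 10 trophoblast genes, also had 0 in either. The same held for the 25 architectural and Polycomb genes, 48 DNA replication genes, 39 Hox genes, 69 protocadherins and 80 ribosomal protein genes. At 1.09% of windows, lists of these sizes would hold few members in later regions in any case, so these absences say little about the lists.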

How the data were processed

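The submitters' processing notes name Bowtie2, SAMtools, bedtools and mm10, versions not given in the sources used here. Each profile is a column of deposited scores, 1 per 5 kb, which the authors had smoothed (Loess) and quantile normalized, per the name they gave the data. Over all windows the mean was 0.20 in both replicate 1 profiles and -0.20 in both replicate 2 profiles, so the 4 profiles did not share a single distribution. The formula, log base and direction of the score are not stated, and high was read as early. Scores were averaged over 50 kb windows with at least 5 of 10 positions on 19 autosomes and chromosome X (pandas 2.3.3, numpy 2.4.6, scipy 1.17.1, Python 3.11.15, matplotlib 3.10.9). The members and gene lists were chosen with earlier results of these data known. Turning points needed a prominence of 0.5 score units. Genes were placed by midpoint in RefSeq tables of GRCm38.p6, the assembly behind mm10, where promoter sequences also come from. Named were the 10 longest regions, the 10 of at least 100 kb with the lowest difference and those of at least 300 kb on chromosome 12, with up to 4 of their longest genes, every list member in a region, and up to 6 promoters with the longer motif; exceptions are marked, and some regions that the rule took are not reported here. The rule, joining and turning points were tested on simulated data. No read counts were used.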

Additional observations from a re-analysis of the deposited data

How the results depend on the processing

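Under alternatives, the later windows numbered 1518 at a threshold of 0.25, 245 at 0.75 and 98 at 1, which made 373, 56 and 23 regions. The later share of shifted windows was then 54.6%, 79.8% and 89.9%. With the replicate number as a block, as a difference of at least 0.5 within each number, there were 1675 windows in 348 regions, 59.4% of shifted windows were later, and all 561 members were among them by construction. With 1 profile left out there were 928 to 5566 windows, 261 to 1205 regions, a later share of 25.4 to 83.4% and a peak share of 32.5 to 61.0%. Windows of 25 kb gave 1120 and windows of 100 kb gave 275, by their size. The peak share of the regions was 34.4% on the dTAG mean and 62.4% with limits of 0.67 and 0.33, against 51.2% on the control. Counting all gene types gave 424 genes in place of 174. The remaining settings, which were a single distribution, centred chromosomes, the number of positions, shifted windows, joining, prominence, every window of the regions, overlap of any base and, chosen after seeing the data, positions read as starts, left the counts of windows and regions, where they were run, within 1.5 times and the shares within their 95% intervals. On a single distribution, however, 275 protein-coding genes lay in later regions, against 174. The later share was itself added after seeing the data. Depth is unknown, so it sets no limit that could be given.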
